A study of Mus musculus with 4 samples.

Results

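The ErbB family, made up of the epidermal growth factor receptor (EGFR), its sister receptors and the ligands that activate them, was examined in lungs carrying metastases of 4T1, a mouse triple-negative breast cancer (TNBC) line. The members were the rows of the deposited count table whose gene symbol was Egfr, Erbb2, Erbb3, Erbb4, Areg, Ereg, Hbegf, Tgfa, Btc or Nrg1, that is 10 genes of the 56748 in the table. The symbol Nrg1 stands on a second row of 186 bases with 0 counts in every library, which was left aside. Of the 10 members, 9 had enough counts to be tested. Erbb4 did not.

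All mice were female BALB/cJ that received 4T1-FLuc cells, a luciferase-carrying 4T1 derivative, through the tail vein at 7 weeks of age, and were treated after metastases were detected. The control group (2 libraries) was given saline, which the sample labels also name as PBS. The treated group (2 libraries) was given cmLumiOpto/PARPi, namely an exosome-associated AAV that carries an antibody to CD276 and a light-driven mitochondrial channel with a luciferase under the cfos promoter, the luciferase substrate ViviRen at 2 mg/kg, and olaparib (50 mg/kg), which inhibits PARP. Material was taken after 3 weeks of treatment. No library of either agent alone was analysed here, so the contributions of vector, substrate and olaparib cannot be told apart. The labels speak of tumour cells taken from lung, and the study's methods of dissociated lung tissue. Neither source states whether a group's libraries came from separate animals. The p-values set group differences against the spread between these libraries, and they may not extend to other animals.

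ErbB receptors are tyrosine kinases of the cell surface that pair up when a ligand binds. EGFR is activated by EGF, TGF-alpha, amphiregulin, epiregulin, HB-EGF and betacellulin. ERBB2 has no known soluble ligand and acts as the favoured partner, ERBB3 has a weak kinase and binds neuregulins, and ERBB4 binds neuregulins and some of the EGFR ligands. The ligands are made as membrane proteins and are cut free by ADAM proteases. Active receptors signal through RAS and MAP kinases and through PI3K and AKT, and the cells answer with feedback inhibitors such as MIG6 (gene Errfi1), Sprouty and Spred proteins and DUSP phosphatases. In lung this system serves epithelial growth and repair, and TNBC cells often carry EGFR. TNBC is defined by the lack of oestrogen and progesterone receptors and of high ERBB2.

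The promoters of 3 members are shown because these genes carry the main patterns below. They are Tgfa, the ligand that differed most clearly between the groups, and Egfr, its receptor. The last is Areg, the only ligand among the members whose libraries differed by over 2 times within both groups. Each sequence is the 250 bases before the annotated start, 5′ to 3′ on the gene's strand, from the RefSeq annotation of GRCm38.p6, which is a C57BL/6J reference and not BALB/cJ. The windows lie at chr6:86194972-86195221 (+), chr11:16751953-16752202 (+) and chr5:91139349-91139598 (+). Capitals mark the letters that matched a searched motif on either strand.
Tgfa: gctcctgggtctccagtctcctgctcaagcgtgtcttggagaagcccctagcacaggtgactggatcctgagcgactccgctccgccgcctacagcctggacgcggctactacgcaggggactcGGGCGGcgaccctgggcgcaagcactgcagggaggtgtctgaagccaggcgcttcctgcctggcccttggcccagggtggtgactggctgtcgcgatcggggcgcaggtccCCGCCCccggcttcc
Egfr: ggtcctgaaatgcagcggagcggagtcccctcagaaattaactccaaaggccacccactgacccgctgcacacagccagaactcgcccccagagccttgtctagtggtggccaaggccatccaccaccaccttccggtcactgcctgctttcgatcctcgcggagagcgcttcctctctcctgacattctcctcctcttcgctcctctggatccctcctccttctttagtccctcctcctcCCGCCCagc
Areg: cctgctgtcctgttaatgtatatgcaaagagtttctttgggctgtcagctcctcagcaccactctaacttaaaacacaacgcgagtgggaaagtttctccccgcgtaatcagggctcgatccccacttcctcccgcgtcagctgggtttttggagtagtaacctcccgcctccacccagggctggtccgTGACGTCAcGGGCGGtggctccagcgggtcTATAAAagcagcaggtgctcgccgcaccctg
The motifs searched were the cAMP response element TGACGTCA, the AP-1 element TGANTCA, the SP1 box GGGCGG and the TATA box TATAAA, and no match overlapped another. Tgfa held 2 SP1 boxes and no TATA box, and Egfr held 1 SP1 box. Areg held 1 cAMP response element, 1 SP1 box and 1 TATA box. Over 32851 windows of the same length, 1.55% held the cAMP response element, 6.75% the AP-1 element, 32.7% the SP1 box and 12.4% the TATA box. The share of G and C was 69.2% in the Tgfa window, 60.8% in the Egfr window and 57.2% in the Areg window, beside a median of 52.4% over all windows. Of the other members, Btc, Erbb2 and Erbb4 had a promoter in the table used, and Ereg, Erbb3 and Nrg1 were not in it. No promoter was searched for Hbegf.

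The libraries held between 15263375 and 16755228 counts, so that 3 counts, the smallest level taken as detected, stood for 0.172 to 0.204 CPM (counts scaled to library size with TMM factors). This floor covers counting error only. Libraries of a group differed beyond counting noise, with a chi-square per degree of freedom of 25.4 for saline and 45.4 for cmLumiOpto/PARPi. Markers of normal lung differed both between and within groups. The summed level of 6 alveolar type 2 markers, surfactant genes among them, was 1630 and 421 CPM in the saline libraries and 7940 and 2810 CPM in the treated libraries. Within that list Abca3 went the other way, lower in both treated libraries (log2 fold change -0.33). For 5 airway secretory markers the sum was 1150 and 82.1 CPM against 5690 and 3180 CPM. The 8 keratin and adhesion genes of tumour and other epithelium did not separate the groups, at 3010 and 3390 CPM against 2690 and 3840 CPM, and Krt5 was at 0 in saline replicate 2. For 6 fibroblast markers the sum was 3750 and 2530 CPM in saline and 1170 and 1290 CPM after treatment. Most of that sum came from Col1a1 (2062 and 1375 against 454 and 571 CPM) and Col1a2 (1249 and 774 against 416 and 437 CPM). Within that list Postn had a positive log2 fold change (0.24) with overlapping groups. All 4 libraries thus held lung and stromal RNA. The keratin and adhesion genes are not particular to the tumour, so they give no separate level of tumour RNA. With respect to the triple-negative label, Pgr had 0 counts in both saline libraries and 4 and 3 counts in the treated ones, whereas Esr1 was present in all 4 libraries at 12.7 to 19.7 CPM.

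**Figure D1:**
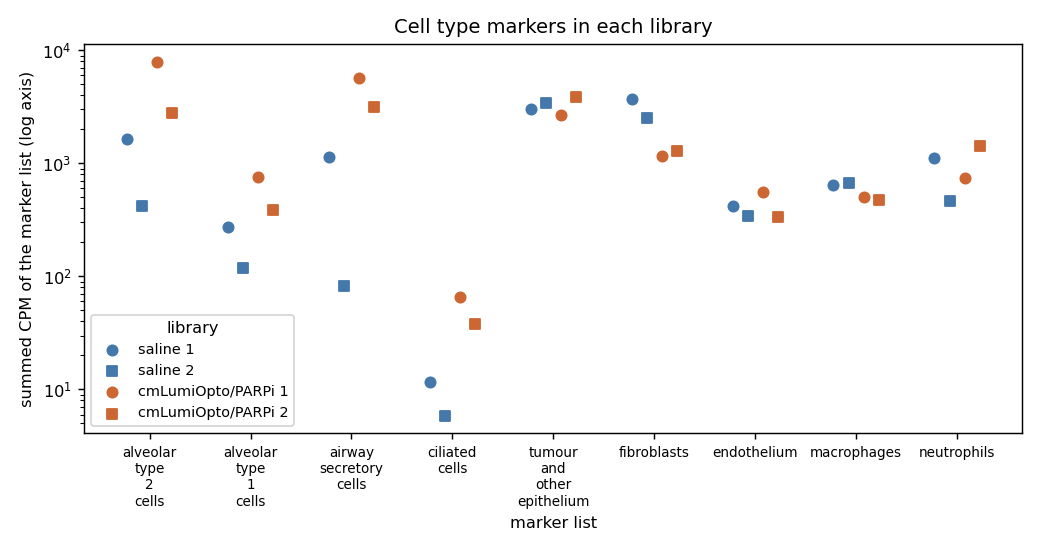
Summed CPM (vertical, log axis) of 9 cell type marker lists (horizontal) in each of the 4 libraries, with 1 point per library. Alveolar and airway sums lie higher in both treated libraries than in both saline libraries, and the fibroblast sum lies lower in both. The alveolar type 2 sum differs within saline as well (1630 against 421 CPM).

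No gene had an adjusted p under 0.05 between cmLumiOpto/PARPi and saline when edgeR's quasi-likelihood test was adjusted by Benjamini-Hochberg over 15167 genes (0% of those tested), and 0 of the 9 tested members did. An unadjusted p under 0.05 was found for 3221 genes (21.2%). DESeq2 called 1011 of 13108 genes (7.71%), and 1 member, Tgfa, was among them. The share of tested genes called was 7.86% without a filter on low counts, 12.0% with a replicate block, 8.14% with that block and a correction for gene length, and 0.192%, 0.0556%, 0.0128% and 0% without saline replicate 1, saline replicate 2, treated replicate 1 and treated replicate 2. The first 3 of these fits called Tgfa and no other member, and the fits without 1 library called no member. No difference described below passed the main test, and "lower" or "higher" refers to the values in the libraries. In bulk tissue, fewer cells of a type and less RNA per cell cannot be told apart.

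Tgfa, which encodes TGF-alpha, was the member with the smallest p. It lies on chromosome 6 from 86172205 to 86252701 in the table's coordinates (ENSMUSG00000029999). Its level was 121 and 147 CPM in the saline libraries and 64.4 and 67.2 CPM in the cmLumiOpto/PARPi libraries. Both treated libraries were far below both saline libraries, and the treated pair lay close together. The means were 133.8 ± 18.2 and 65.8 ± 1.93 CPM (SD, n = 2 each), which is a difference of -1.02 ± 0.15 (standard error) on the log2 scale, or a level 2.03 times higher in saline. In edgeR's quasi-likelihood test its unadjusted p ranked 35 of 15167 genes, with an adjusted p of 0.138, while DESeq2 gave an adjusted p of 7.77e-05. Leaving out any 1 library kept the log2 fold change between -1.17 and -0.89.

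Hbegf, which encodes HB-EGF, a heparin-binding EGFR ligand that is also induced by injury, was the other ligand with non-overlapping groups (chromosome 18 from 36637980 to 36648858, ENSMUSG00000024486). The saline libraries had 113 CPM each, and the treated libraries had 69.2 and 93.9 CPM. The saline libraries were nearly equal, and treated replicate 1 was the lowest. The log2 fold change was -0.47 (standard error 0.18, adjusted p = 0.217 by edgeR's quasi-likelihood test). It moved to -0.27 without treated replicate 1 and to -0.73 without treated replicate 2. Together with Egfr, described below, 3 of the 9 tested members had both treated libraries below both saline libraries, and 0 had both above. Among all tested genes these shares were 27.8% and 27.4%, or 55.2% in either direction. At an unadjusted p under 0.05 the same 3 members were lower and 0 were higher, where 12.0% and 9.21% of all tested genes were. Only 1 member, Tgfa, was lower at that p when libraries were scaled by their totals alone or corrected for gene length.

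**Figure D2:**
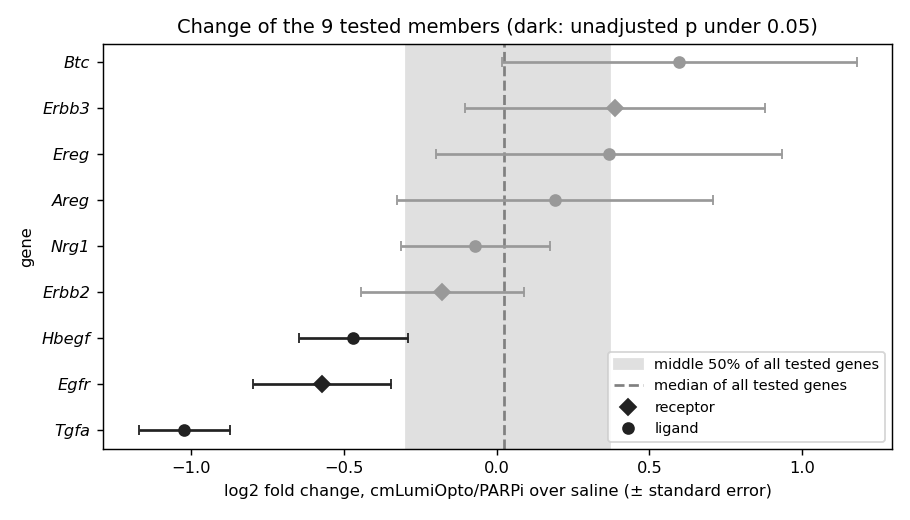
Log2 fold change of cmLumiOpto/PARPi over saline (horizontal) for the 9 tested members (vertical), with bars of 1 standard error, receptors as diamonds and ligands as circles. The grey band is the middle 50% of all tested genes and the dashed line their median (0.02). Tgfa (-1.02), Egfr (-0.57) and Hbegf (-0.47), drawn dark, lie below the band. The bars of Btc, Erbb3, Ereg, Areg, Nrg1 and Erbb2 reach across the dashed line, that of Btc only just.

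Areg encodes amphiregulin, a ligand made by epithelial cells and by several immune cells (chromosome 5 from 91287458 to 91296291, ENSMUSG00000029378). It was at 13.1 and 27.4 CPM in the saline libraries and at 13.3 and 32.9 CPM after treatment. The groups overlapped, and the spread within each was far wider than the distance between them. Replicate 2 exceeded replicate 1 by 2.10 times in saline (95% interval 1.77 to 2.49, exact, from the split of the counts) and by 2.48 times after treatment (2.12 to 2.90). These intervals compare pairs of libraries, cover counting error only and say nothing of the treatment. Among all tested genes, 0.488% exceeded replicate 1 by over 2 times in both groups. Across the groups, the log2 fold change for Areg was 0.19 ± 0.52 (standard error), with an adjusted p of 0.859, and it turned to -0.26 without saline replicate 1 and to -0.63 without treated replicate 2.

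Ereg, Areg's neighbour, encodes epiregulin (chromosome 5 from 91222481 to 91241505, ENSMUSG00000029377). It was low, at 2.19 and 2.59 CPM in saline and 1.67 and 4.51 CPM after treatment. Treated replicate 2, the library with the most Areg, was also highest for Ereg, and treated replicate 1 was lowest. In CPM, replicate 2 exceeded replicate 1 by 2.70 times in the treated group (95% interval 1.74 to 4.30) and by 1.18 times in saline (0.726 to 1.92). The log2 fold change was 0.37 (standard error 0.57, adjusted p = 0.740), and -0.54 without treated replicate 2.

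Btc, the betacellulin gene on the same stretch of chromosome 5 (91505120 to 91550853, ENSMUSG00000082361), was the lowest of the tested members. It had 11 and 16 counts in saline and 30 and 16 counts after treatment, or 0.689 and 1.09 CPM against 1.72 and 0.961 CPM. Its excess rested on treated replicate 1. The log2 fold change, 0.60 ± 0.58 (standard error, adjusted p = 0.584), became 0.12 without that library. Nrg1, the neuregulin that binds ERBB3 and ERBB4 (chromosome 8 from 32304579 to 33374825, ENSMUSG00000062991), was the steadiest member. It was at 11.0 and 9.25 CPM in saline and 9.83 and 9.49 CPM after treatment, and the treated values lay inside the saline range. Its log2 fold change was -0.07 (standard error 0.25, adjusted p = 0.893), turning to 0.047 without saline replicate 1 and to 0.25 with a correction for gene length.

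**Figure D3:**
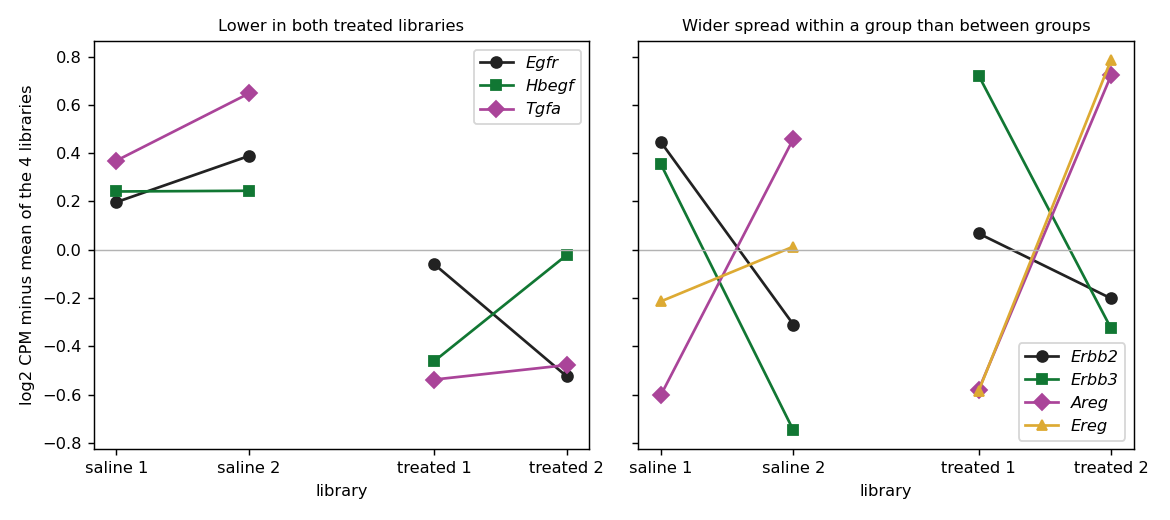
Log2 CPM minus the mean of the 4 libraries (vertical) in each library (horizontal), for the 3 members whose groups do not overlap (left) and for Erbb2, Erbb3, Areg and Ereg (right), with lines joining the libraries of a group only to guide the eye. On the left all saline points lie above 0 and all treated points below 0, and on the right Erbb2 and Erbb3 are higher in replicate 1 of each group while Areg and Ereg are higher in replicate 2.

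Among the receptors, Egfr alone had non-overlapping groups (chromosome 11 from 16702203 to 16868158, ENSMUSG00000020122). It was at 24.5 and 28.0 CPM in the saline libraries and 20.5 and 14.8 CPM in the treated libraries. Both treated libraries were lower, with 1.38 times more in treated replicate 1 than in treated replicate 2 (95% interval 1.17 to 1.63). The log2 fold change was -0.57 (standard error 0.23, adjusted p = 0.229 by edgeR's quasi-likelihood test). It was -0.38 without treated replicate 2 and -0.83 without treated replicate 1. Egfr is a long gene (11326 bases in the table), and log2 fold changes fell with gene length over all tested genes (Spearman's rho = -0.373 across genes, which are not independent). With a correction for that trend the value was -0.34 (adjusted p = 0.495). An antisense gene within its span, Egfros, had 8 to 26 counts, against 247 to 412 for Egfr. Whether reads were counted by strand is not stated.

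Erbb2, the co-receptor known in human disease as HER2, was the most abundant receptor (chromosome 11 from 98303296 to 98328542, ENSMUSG00000062312). It was at 87.6 and 51.9 CPM in saline and 67.4 and 55.9 CPM after treatment, so that the treated values lay between those of the saline libraries. The log2 fold change was -0.18 (standard error 0.27, adjusted p = 0.730), turning to 0.23 without saline replicate 1 and moving to -0.52 without saline replicate 2. Mien1, which overlaps Erbb2 on the opposite strand, had 111 to 283 counts against 762 to 1399 for Erbb2.

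Erbb3, the neuregulin receptor (chromosome 10 from 128403392 to 128425521, ENSMUSG00000018166), had the largest ratio between libraries of a group among the tested receptors. It was at 15.5 and 7.15 CPM in saline and 20.0 and 9.61 CPM after treatment. The replicate 1 library was the higher in each group, by 2.16 times in saline (95% interval 1.72 to 2.75) and by 2.08 times after treatment (1.72 to 2.53). Among all tested genes, 3.14% exceeded replicate 2 by over 2 times in both groups. The alveolar type 2 and airway secretory sums were also higher in replicate 1 of each group. Their part in the Erbb3 levels was not tested. Across the groups the log2 fold change of Erbb3 was 0.39 ± 0.49 (standard error), with an adjusted p of 0.679. It was -0.08 without saline replicate 2 and -0.24 without treated replicate 1. Erbb4 (chromosome 1 from 68071345 to 69147218, ENSMUSG00000062209) had 0, 0 and 0 counts and, in treated replicate 2, 1 count, so that it was not detectable at this depth.

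Levels of different genes were compared per length, as CPM per kb of the gene length in the table. In saline the order was Hbegf (23.4 ± 0.0352 CPM per kb, SD, n = 2), Tgfa (20.6 ± 2.81), Areg (16.7 ± 8.34), Erbb2 (13.4 ± 4.85), Egfr (2.32 ± 0.218), Erbb3 (1.88 ± 0.978), Nrg1 (0.657 ± 0.0810), Ereg (0.579 ± 0.0675), Btc (0.197 ± 0.0626) and Erbb4. The libraries of Tgfa and Areg, Areg and Erbb2, Egfr and Erbb3, and Nrg1 and Ereg overlapped, so these neighbours were not separated. After treatment Areg (19.0 ± 11.4 CPM per kb) and Hbegf (16.9 ± 3.61) stood first by mean with overlapping libraries, followed by Erbb2 (11.8 ± 1.56) and then Tgfa (10.1 ± 0.297). The order of Areg was not settled, since in treated replicate 1 it stood at 10.9 CPM per kb, below Erbb2 at 12.9. Below them came Erbb3 (2.46 ± 1.22) and Egfr (1.56 ± 0.355), then Ereg and Nrg1, each pair with overlapping libraries, and Btc (0.297 ± 0.119) and Erbb4 were last. Tgfa thus lay above Erbb2 in each saline library (18.6 against 16.8 and 22.6 against 9.95 CPM per kb). In each treated library Tgfa lay below Erbb2 (9.93 against 12.9 and 10.4 against 10.7). The gap in treated replicate 2 was narrow and was not set against counting error, so the order there was not settled. Of the summed receptor level per kb, Erbb2 made up 71.6% to 78.6% in the 4 libraries, Egfr 9.61% to 18.2% and Erbb3 8.72% to 18.4%. Of the summed level of the 6 ligands per kb, Tgfa made up 34.4% and 32.3% in saline and 27.1% and 17.6% after treatment, while Areg made up 19.9% and 32.2% against 29.9% and 46.1%.

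**Figure D4:**
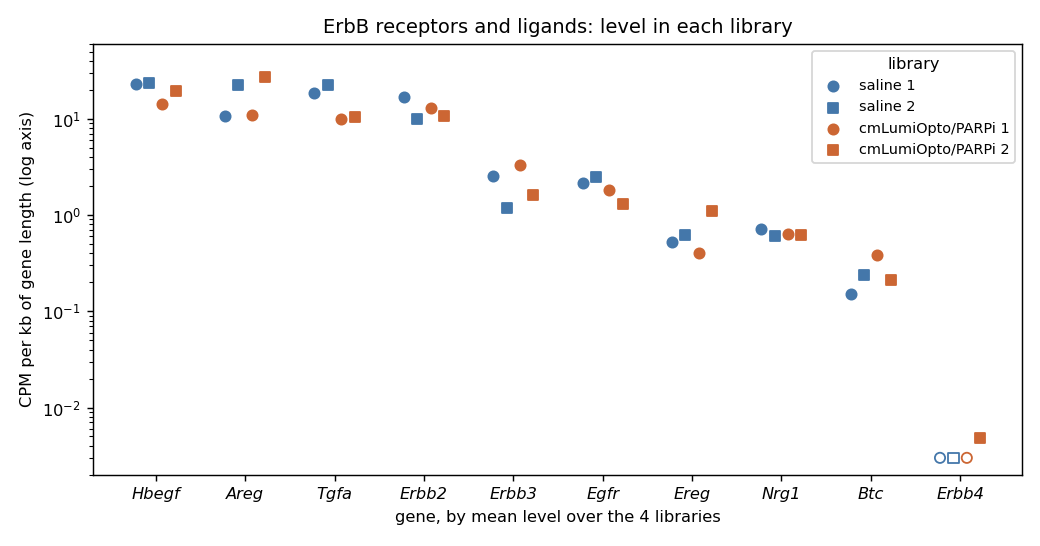
CPM per kb of gene length (vertical, log axis) of the 10 members (horizontal, by mean level) in each library, with 1 point per library. Open symbols at the bottom mark libraries with 0 counts, which have no position on a log axis, as in 3 of the 4 libraries for Erbb4. Hbegf, Areg, Tgfa and Erbb2 form an upper group between 9.93 and 27.1 CPM per kb, and the other members lie at 3.33 or below.

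The remaining ligands of the family were scarce. Egf had 3 and 6 counts in saline and 5 and 0 after treatment, Epgn had 5 and 6 against 14 and 7, and Nrg3 had 0 in every library, so these were not tested. Nrg2 was at 1.88 and 1.09 CPM in saline and 2.07 and 0.541 CPM after treatment, and Nrg4 at 0.313 and 0.681 against 0.172 and 0.841 CPM. Both overlapped between groups, with log2 fold changes of -0.18 (standard error 0.74) and 0.03 (standard error 0.92).

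Beyond receptors and ligands, 69 genes of ErbB signaling were examined as lists (the remaining ligands, ligand shedding, adaptors, receptor brakes, the RAS and PI3K arms, and feedback and target genes), of which 66 were tested and 0 passed an adjusted p of 0.05 in edgeR's quasi-likelihood test. These lists, like the members, were chosen with earlier results of these data known. Their contrast with all tested genes is therefore descriptive and gives no independent support. The median log2 fold change of the 66 was -0.31, beside 0.02 over all tested genes. At an unadjusted p under 0.05, 25 were lower and 2 were higher, beside 12.0% and 9.21% of all tested genes. The median was -0.37 without saline replicate 1 and -0.30 without saline replicate 2. It was -0.25 without treated replicate 1 and -0.38 without treated replicate 2. Over all tested genes the median stayed between -0.01 and 0.02 in these fits. Both treated libraries lay below both saline libraries for 44 of the 66 and above for 4, where 27.8% and 27.4% of all tested genes did. Pathway genes were longer than the rest (median 5315.5 against 4127 bases), and with the correction for gene length the median was -0.24 (-0.05 over all genes) and 13 were lower at p under 0.05, against 8.37% of all genes. DESeq2 called 4 of the 66 at an adjusted p of 0.05, near its share of 7.71% of all genes. The fit without a filter on low counts called 10 pathway genes, beside 7.86% of all genes. The replicate block called 13 of the 66, beside 12.0%, and the block with the length correction called 12, beside 8.14%.

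The feedback and target genes of MAP kinase signaling had the lowest median of the lists (-0.47, 17 tested genes). Of these, 7 were lower at an unadjusted p under 0.05 and 0 were higher, and 12 had non-overlapping groups, all lower. Over all tested genes, 12.0% were lower by that p and 27.8% were lower without overlap. Spred2, an inhibitor of RAF activation, was at 123 and 126 CPM in saline and at 58.5 and 67.6 CPM after treatment, a difference of -0.98 ± 0.14 (standard error) on the log2 scale (adjusted p = 0.138). Dusp5, a nuclear ERK phosphatase, was at 29.6 and 34.3 against 17.5 and 21.3 CPM (log2 fold change -0.72, adjusted p = 0.148). Fos and Phlda1, named after their values were seen, had positive log2 fold changes (0.38 and 0.25) with overlapping groups.

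Of the 12 receptor brakes and turnover genes, 4 were lower at an unadjusted p under 0.05 and 0 higher, beside the same 12.0% and 9.21% of all tested genes. Errfi1, whose product MIG6 binds and blocks the EGFR kinase, was at 242 and 342 CPM in saline and 123 and 186 CPM after treatment (log2 fold change -0.92, standard error 0.26, adjusted p = 0.160). Cbl, a ubiquitin ligase that sends active EGFR for degradation, was at 89.9 and 82.3 against 56.2 and 58.2 CPM (log2 fold change -0.59, adjusted p = 0.138). With the correction for gene length the value for Cbl was -0.33 (adjusted p = 0.406). In both genes the treated libraries were below the saline libraries.

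Among the 10 adaptors, 6 were lower at an unadjusted p under 0.05 and 0 higher, where 12.0% and 9.21% of all tested genes were. Plcg1 (101 and 102 against 65.3 and 75.8 CPM) and Gab2 (38.0 and 37.9 against 25.9 and 26 CPM) had the smallest p. With the correction for gene length their log2 fold changes went from -0.53 to -0.39 and from -0.55 to -0.49. In the PI3K and AKT list, 5 of 9 were lower at an unadjusted p under 0.05 and 0 higher, beside the same 12.0% and 9.21%. Among the 5 was Akt1 (571 and 548 against 392 and 438 CPM). The RAS and MAP kinase cascade was divided, with 1 gene higher and 1 lower of 10, which is near those shares. Hras was at 55.4 and 42.7 CPM in saline and 75.6 and 68.0 CPM after treatment, and Braf at 24.5 and 28.9 against 19.6 and 16.2 CPM. The log2 fold change of Hras went from 0.55 to 0.36 without saline replicate 2, and that of Braf from -0.58 to -0.29 with the correction for gene length.

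In the ligand shedding list, 2 of 6 genes were lower and 1 was higher at an unadjusted p under 0.05. Over all tested genes these shares were 12.0% and 9.21%. Furin, which activates ADAM proteases (278 and 288 against 165 and 198 CPM), and Adam10, a sheddase of betacellulin and EGF (346 and 396 against 265 and 296 CPM), were lower at an unadjusted p under 0.05. Cnih4 was higher (80.7 and 81.3 against 98.5 and 107 CPM). With the correction for gene length the log2 fold change went from -0.64 to -0.45 for Furin and from -0.40 to -0.41 for Adam10. For Cnih4 it went from 0.34 to 0.24. Under that correction none of these genes had an unadjusted p under 0.05 by edgeR's quasi-likelihood test. Adam17, named after its values were seen, was also lower in both treated libraries (log2 fold change -0.28), with an unadjusted p of 0.125 by edgeR's quasi-likelihood test. Among 6 fibroblast markers, 5 were lower in both treated libraries, where 27.8% of all tested genes were. These 5 moved in the same direction as Tgfa and most feedback genes, and their part in these values was not tested.

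**Figure D5:**
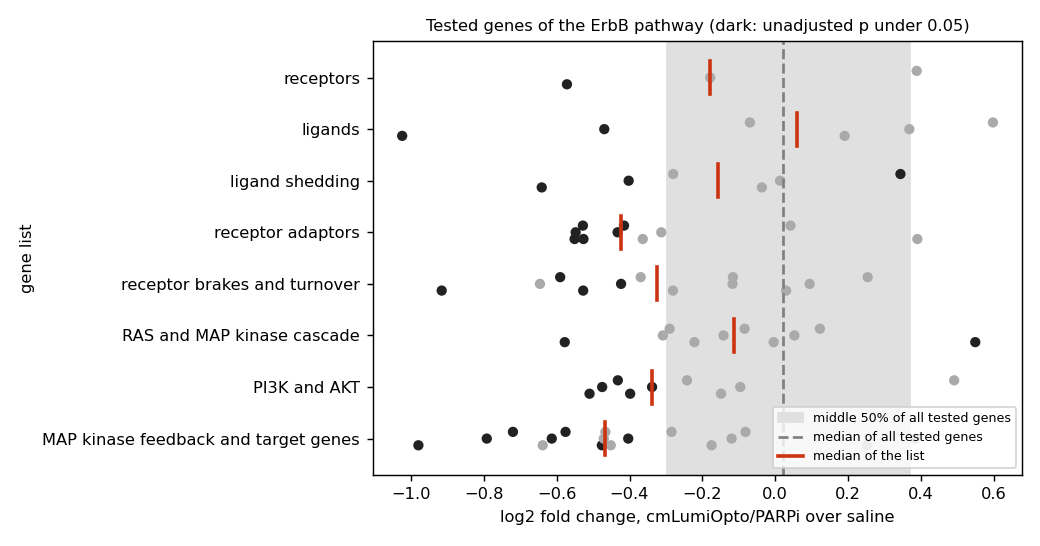
Log2 fold change of cmLumiOpto/PARPi over saline (horizontal) of each tested gene in the receptor, ligand and pathway lists (vertical), with dark points for an unadjusted p under 0.05 and a red bar at each list's median. The grey band holds the middle 50% of all tested genes. The medians of the feedback and target genes (-0.47), adaptors (-0.42), PI3K and AKT (-0.34) and receptor brakes (-0.33) lie below the band.

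The genes most like each tested receptor were found by the distance between log2 CPM values centred over the 4 libraries. For Egfr they were Kmt2a (distance 0.0318) and Med12 (0.0470), for Erbb2 Jph2 (0.0557) and Mdk (0.0755), and for Erbb3 Lair1 (0.0716) and Rftn2 (0.0771). With only 4 libraries, between 2 and 6 genes lay within 0.1 of each receptor. CD276, the target of the vector's antibody, had 110 and 101 CPM in saline and 76.6 and 85.3 CPM after treatment (log2 fold change -0.38, standard error 0.13, adjusted p = 0.201).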

How the data were processed

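RNA of 4 libraries (2 saline, 2 cmLumiOpto/PARPi) was sequenced on an Illumina instrument. The authors mapped the reads with HISAT2 and deposited read counts per gene, not normalized, with positions and lengths. The submitters' processing notes name HISAT and TopHat2 beside HISAT2. The counter, the versions of the mapping tools and the use of strand are not given in the sources used here. The paper names GRCm38 and the submitters' processing notes mm39. Only 2.83% of 52073 genes had the same position in the GRCm38 annotation GENCODE M21, so gene positions are printed as the table gives them, and promoters are those of GRCm38.p6.

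Differential expression was tested with edgeR 4.0.16 in R 4.3.3 (TMM, filterByExpr with a minimum count of 10, glmQLFit with the defaults of that version, glmQLFTest, Benjamini-Hochberg adjustment over all 15167 tested genes, threshold 0.05). CPM used TMM factors, and log2 CPM a prior count of 2. Alternatives were DESeq2 1.42.0, other options, scalings and filters, a replicate block, a per-library loess on gene length (span 0.5) and leaving out each library. The fits were tested on simulated data. Members and lists were chosen with earlier results of these data known. Named genes were all members, the remaining ligands, Esr1, Pgr and Cd276, in each pathway list up to 2 genes per direction with the smallest unadjusted p under 0.05, and for each tested receptor the 2 genes nearest to it in centred log2 CPM. 1 gene that this rule names is not reported here. An exact permutation of 2 against 2 libraries cannot give a two-sided p below 0.333.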

Additional observations from a re-analysis of the deposited data

How the results depend on the processing

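Over all genes, DESeq2 passed 1011 genes at an adjusted p of 0.05, the fit without a filter on low counts 2000, the replicate block 1822, and the length correction with the replicate block 1234, against 0 in the main test, and leaving out 1 library gave 0 to 31. Each of these 4 fits passed 1 member, which was Tgfa (adjusted p from 3.30e-06 without a filter to 0.00926 with the block). In the same order, the 4 fits passed 4, 10, 13 and 12 pathway genes, beside 7.71%, 7.86%, 12.0% and 8.14% of all genes. The other scalings, glmQLFit without its legacy option and the length correction alone passed 0 genes. Leaving out 1 library passed 0 members, with an adjusted p for Tgfa from 0.0589 to 0.370, and 0 pathway genes. The labels give same-numbered libraries nothing in common but the number, and whether they share more is not known. Their deviations correlated across genes (Spearman's rho = 0.298). With the replicate block, Hbegf had an adjusted p of 0.0705, Egfr 0.115 and Erbb3 0.257.

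Under the length correction, Areg turned to -0.17 (-0.21 with the block as well) and Nrg1 to 0.25 (0.25 with the block). Nrg4 turned to -0.10 with the block and to -0.045 with block and length correction. Without 1 library, log2 fold changes ranged from -0.52 to 0.23 for Erbb2, -0.24 to 1.03 for Erbb3, -0.63 to 0.80 for Areg, -0.54 to 0.91 for Ereg, -0.21 to 0.047 for Nrg1, -1.45 to 0.45 for Nrg2 and -1.5 to 0.76 for Nrg4. The cause was not tested. Egfr, Hbegf, Tgfa and Btc kept their direction under all alternatives run. With 2 libraries a group and a floor of 0.172 to 0.204 CPM, the depth did not allow a comparison of Erbb4, Egf, Epgn or Nrg3.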
